A study of Mus musculus with 24 samples.

Results

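The acute phase, complement and coagulation genes described here are 45 genes for plasma proteins of the liver and for the receptors and signalling proteins that control them. They were chosen by name, with earlier results of these data known. All 45 had reads in each of the 24 libraries, among 15741 genes in any of the deposited tables and 14420 with reads in all libraries. By role they comprise 16 acute phase genes, 3 fibrinogen chains, 9 complement genes, 7 coagulation factors, 3 anticoagulant or fibrinolysis genes, 3 negative acute phase genes and 4 genes of cytokine signalling. Livers came from wild-type mice (WT) and from mice that lack GCN2 throughout the body (KO), that is, the kinase encoded by Eif2ak4 that senses uncharged transfer RNA. Food was either a control diet (Control) or one devoid of leucine (LeuD), and livers were taken at circadian time 3 or 15 (CT03 or CT15). The 8 groups held 3 mice each, numbered as replicates 1 to 3. All groups shared individual housing, 2 days on the control diet before the switch, and 8 days of constant darkness that began 24 h after it, and the labels used here name no age, sex or strain. Loss of GCN2 in the KO mice is taken from their description. Where differences in the liver begin was not tested. The comparisons ask how time of day, loss of leucine and loss of GCN2 alter liver RNA, alone and together.

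Acute phase proteins are plasma proteins, mostly made by hepatocytes, whose levels change in inflammation, injury and infection. Interleukin 6 acts through its receptor (Il6ra) and STAT3, interleukin 1 acts through Il1r1, and SOCS3 is induced by this signalling and limits it. Positive members such as serum amyloid A, haptoglobin and fibrinogen rise in the response, and negative members such as albumin and transthyretin fall. Complement proteins mark and lyse microbes in a cascade that passes through C3 and ends in the membrane attack complex. Coagulation factors form thrombin, which cuts fibrinogen into fibrin. Antithrombin and protein C restrain clotting, and plasmin dissolves the clot.

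The sequences before the start sites of 5 members are shown because they belong to genes whose values are described below, the pentraxins Apcs and Crp for diet and the 3 fibrinogen genes for time of day. Each is the 250 bases before the annotated start, 5′ to 3′ on the strand of the gene, from the RefSeq promoter table on build GRCm38.p6. Fga lies at chr3:83025903-83026152 on the plus strand, Fgb at chr3:83049864-83050113 on the minus strand and Fgg at chr3:83007474-83007723 on the plus strand. Apcs lies at chr1:172895055-172895304 on the minus strand and Crp at chr1:172697806-172698055 on the plus strand. Capitals mark matches, on either strand, to CTGGGAA (the core of the interleukin 6 response element of acute phase genes), TTCNNNGAA (a STAT site) and TTGCNNCAA, where N is any base. TTGCNNCAA was searched under the name of a C/EBP site but is not the C/EBP palindrome, so its matches are not taken as C/EBP sites.

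Fga: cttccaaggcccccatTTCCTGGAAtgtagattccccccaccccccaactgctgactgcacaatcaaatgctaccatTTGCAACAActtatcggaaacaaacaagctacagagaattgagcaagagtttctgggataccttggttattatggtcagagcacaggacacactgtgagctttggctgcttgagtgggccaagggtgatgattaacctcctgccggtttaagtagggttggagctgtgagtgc
Fgb: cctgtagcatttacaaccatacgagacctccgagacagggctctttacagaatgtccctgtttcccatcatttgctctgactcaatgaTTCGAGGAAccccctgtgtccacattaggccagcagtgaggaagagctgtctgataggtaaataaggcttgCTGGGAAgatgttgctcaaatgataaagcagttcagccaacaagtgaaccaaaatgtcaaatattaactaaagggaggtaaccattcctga
Fgg: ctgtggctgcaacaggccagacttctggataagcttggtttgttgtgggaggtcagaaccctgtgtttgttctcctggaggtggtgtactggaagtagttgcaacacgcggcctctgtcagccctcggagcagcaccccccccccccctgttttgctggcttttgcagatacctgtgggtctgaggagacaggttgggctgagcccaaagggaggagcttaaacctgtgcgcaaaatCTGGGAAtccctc
Apcs: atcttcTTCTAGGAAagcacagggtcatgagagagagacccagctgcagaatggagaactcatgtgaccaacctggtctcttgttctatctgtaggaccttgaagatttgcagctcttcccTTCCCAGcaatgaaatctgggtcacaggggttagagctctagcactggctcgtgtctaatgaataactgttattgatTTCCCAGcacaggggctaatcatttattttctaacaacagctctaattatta
Crp: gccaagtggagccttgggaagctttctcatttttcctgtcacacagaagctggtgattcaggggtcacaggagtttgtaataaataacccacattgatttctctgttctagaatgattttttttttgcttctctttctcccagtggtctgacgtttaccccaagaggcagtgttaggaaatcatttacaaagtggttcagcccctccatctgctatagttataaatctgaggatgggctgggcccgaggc

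The 3 fibrinogen genes lie next to each other on chromosome 3, and each window held at least 1 match. The window of Apcs held 2 matches to CTGGGAA and 1 to TTCNNNGAA, and that of Crp held none of the letters searched. None of the matches in these 5 windows overlapped another. Of the 45 members, 35 matched the table by symbol. A member was counted if any window listed for it matched, while shares over all promoters count each promoter once, so these shares are not strictly alike. CTGGGAA was found for 4 of the 35 members (11.4%: Apcs, F9, Fgb and Fgg) and in 9.1% of all 32851 promoters of the same length. TTCNNNGAA was found in 7 (20%: Apcs, C8a, F9, Fga, Fgb, Itih4 and Socs3) against 7.02% of all promoters, and TTGCNNCAA in C6 and Fga (5.71% against 1.74%). The C/EBP-ATF response element TGATGNAA was found in 0 of the 35 (3.45% of all), the E-box CACGTG in Il6ra alone (2.86% against 6.02%) and the D-box TTATGTAA in Alb alone (2.86% against 0.819%). A match describes the letters and is no evidence of binding.

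Libraries held 34137121 to 44884200 reads in listed genes, and no pair of mates was near sampling noise (chi-square per degree of freedom from 34.2 to 405 over genes). Sample titles number the livers of a group as "bio rep". The p values below rest on the spread between these mice of 1 study, drawn by the test towards that of genes with similar levels. Eif2ak4 read 287 to 349 normalized counts in WT (median 326) and 243 to 462 in KO (median 336). These are sums over the whole gene, in which a lost part of the gene need not show, so they leave the genotype label unchecked. Hepatocyte markers were abundant in every library (10 of 10 measured, 25593 to 39218 RPM together, where RPM are reads scaled to a fixed library total). Of the neutrophil markers 7 of 12 were listed (2.48 to 13.2 RPM together, without Ly6g, Mpo, Camp, Ngp and Ltf), while 9 of 9 Kupffer cell and macrophage markers gave 272 to 1060. Pancreas acinar genes exceeded 200 RPM in 5 libraries: KO LeuD CT03 replicate 1 (15980), KO LeuD CT15 replicate 3 (8584), WT LeuD CT15 replicate 1 (4662), KO Control CT15 replicate 1 (738.7) and KO Control CT03 replicate 3 (294.3). Reads of the mitochondrial genome made up 2.24% to 4.14% of the total in KO LeuD and 4.23% to 6.32% in the other groups. Because liver was sequenced in bulk, fewer cells of a type and less RNA per cell cannot be told apart.

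Levels are normalized counts, that is, reads divided by a size factor for depth, on 1 scale over the 24 libraries. Together the 45 members took 10.7% to 21.9% of all reads. Per kilobase of exon, albumin (Alb) was the highest of them at a median level of 1593200 normalized counts, followed by transthyretin (Ttr) at 166680 and haemopexin (Hpx) at 93169. The complement receptor C5ar1 (24.5) and Saa3 (38.5) were the lowest. Fgg, Fga and Fgb stood at 78743, 63927 and 47669, Hp at 69963 and C3 at 63525. The pentraxins Apcs and Crp stood at 5603 and 4222, and Saa1 at only 413 per kilobase. The highest library was 66.2 times the lowest for Lcn2, 14.6 times for Saa2, 14.4 times for Apcs and 13.5 times for Saa1.

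**Figure D1:**
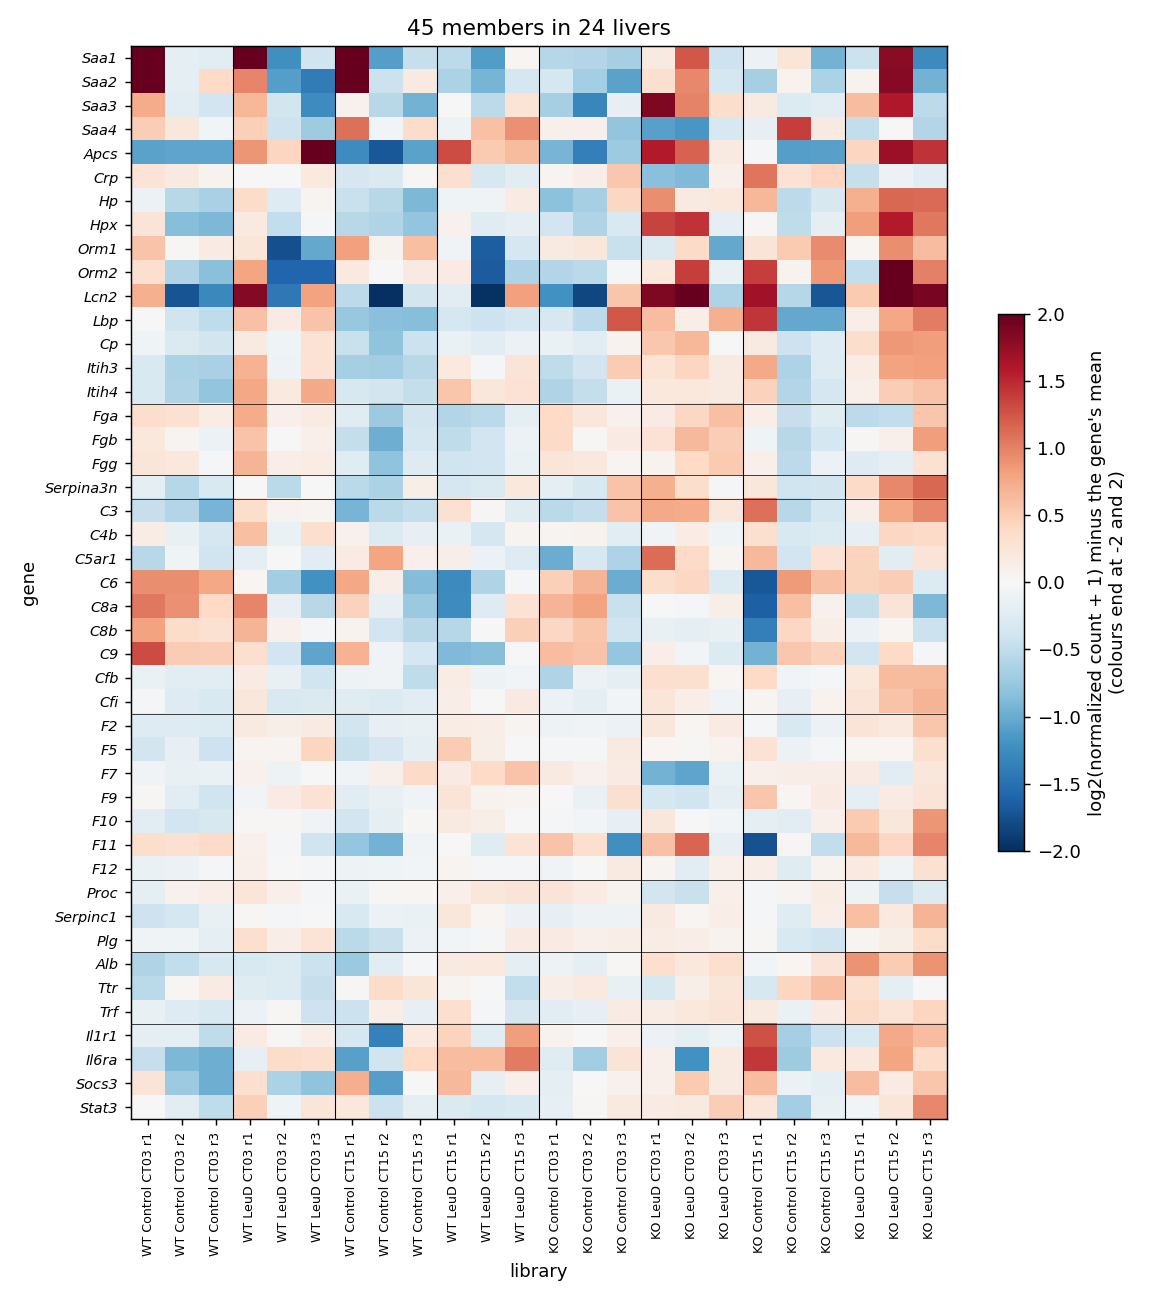
Each row is a member and each column a library, grouped by genotype, diet and time, and colour gives log2(normalized count + 1) minus the mean of that gene over the 24 libraries. Apcs is higher in all LeuD columns than in all Control columns, and Saa1 and Saa2 are high in single columns of several groups.

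Changes below are differences in log2(normalized count + 1), given with their SE, and understate changes of genes with few reads. Adjusted p values come from limma, adjusted by the Benjamini-Hochberg method across every gene tested in a comparison, and a gene was called, or is said to have risen or fallen, at an adjusted p under 0.05. Each per-library sequence of values gives replicates 1, 2 and 3 in that order. Counts of members in fits that left out 1 library come without the share of all genes and show only how calls moved.

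A group of acute phase genes was higher on LeuD than on Control. Averaged over the 4 genotype and time conditions, 16 of the 45 members were called, 15 higher and 1 lower on LeuD, where 13.9% of all genes were called (7.16% higher, 6.78% lower). The median change of the 45 members was 0.28, against 0.00 over all genes. The members that rose were the acute phase genes Apcs, Hpx, Itih4, Hp, Itih3, Cp and Serpina3n, the complement genes C3, Cfb and Cfi, the clotting factors F2, F10 and F5, and Serpinc1 and Plg. Crp fell. By role, 7 of 16 acute phase genes rose, 0 of 3 fibrinogen genes, 3 of 9 complement genes, 3 of 7 coagulation factors, 2 of 3 anticoagulant and fibrinolysis genes, 0 of 3 negative acute phase genes and 0 of 4 signalling genes. The sign of the diet difference was positive in all 4 conditions for 21 members and negative in all 4 for 4 members (Orm1, C8a, C9 and Ttr), against 11.9% and 13% of all genes. The 5 erythroid markers measured all fell on LeuD, from 212 to 460 RPM together on Control to 78.1 to 275 on LeuD, and their part in these differences was not tested.

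**Figure D2:**
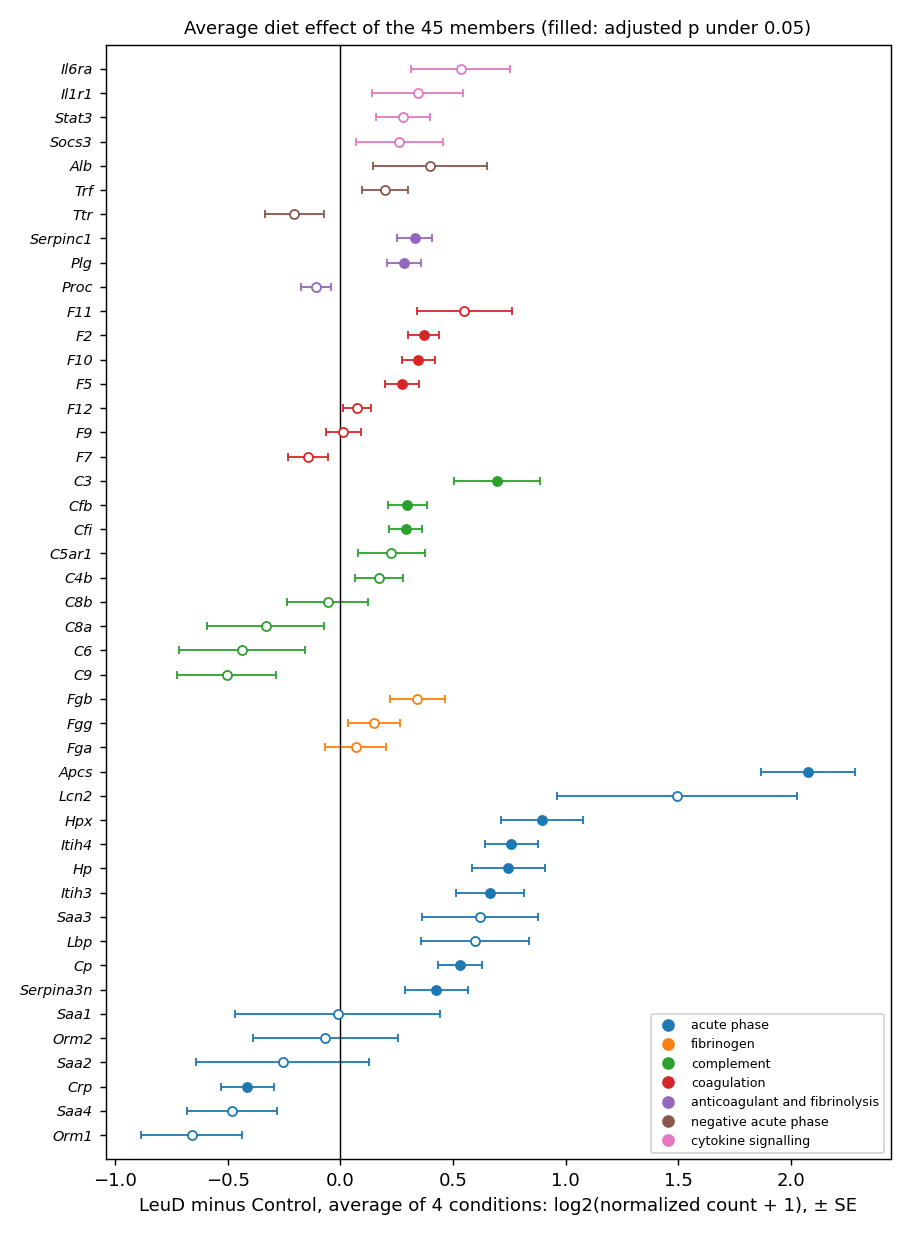
Points give the LeuD minus Control difference of each member on the log2(normalized count + 1) scale, averaged over the 4 genotype and time conditions, with bars of 1 SE, and filled points mark an adjusted p under 0.05. Apcs stands at 2.07, the other members that rose at 0.27 to 0.90, and Crp at -0.41.

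Apcs, serum amyloid P component, is the main acute phase pentraxin of mice. Apcs read 2470, 2500 and 2500 on Control at CT03, 2160, 1600 and 2470 on Control at CT15, 9510, 6940 and 23000 on LeuD at CT03 and 12800, 7430 and 8050 on LeuD at CT15 in WT mice. Apcs in KO mice read 2730, 2000 and 3110, 5030, 2400 and 2440, 15500, 11700 and 5850 and 6950, 17000 and 14100 in the same order. The 12 LeuD libraries (5850 to 23000, median 10600) did not overlap the 12 Control libraries (1600 to 5030, median 2470). Its rise was 2.07 ± 0.21 (adjusted p = 1.36e-05). Over 12 against 12 libraries such a separation was found upward for 2 members, Apcs and F2, and for 0.111% of all genes.

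Haptoglobin (Hp) binds free haemoglobin, and haemopexin (Hpx) binds free haem. Hp read 110000, 80900 and 76100 on Control at CT03, 87600, 80700 and 63500 on Control at CT15, 154000, 99400 and 124000 on LeuD at CT03 and 112000, 113000 and 133000 on LeuD at CT15 in WT mice. Hp in KO mice read 67700, 75000 and 158000, 188000, 82400 and 95200, 227000, 135000 and 138000 and 194000, 264000 and 261000 in the same order. Every LeuD library lay above the Control libraries other than 3, which were KO Control CT15 replicate 1, KO Control CT03 replicate 3 and WT Control CT03 replicate 1. Hp rose by 0.75 ± 0.16 (adjusted p = 0.00469). Hpx read 192000, 88700 and 85700 on Control at CT03, 109000, 105000 and 92400 on Control at CT15, 181000, 113000 and 156000 on LeuD at CT03 and 169000, 135000 and 141000 on LeuD at CT15 in WT mice. Hpx in KO mice read 122000, 105000 and 130000, 163000, 112000 and 140000, 408000, 435000 and 139000 and 285000, 481000 and 333000 in the same order. Of the 6 KO LeuD livers 5 stood above every other library, and KO LeuD CT03 replicate 3 lay among the others. Hpx rose by 0.90 ± 0.18 (adjusted p = 0.0028).

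Itih3 and Itih4 encode heavy-chain family members of the inter-alpha-trypsin inhibitors, which bind hyaluronan in the matrix. Itih4 read 60600, 49700 and 43300 on Control at CT03, 60500, 58000 and 53900 on Control at CT15, 129000, 85900 and 127000 on LeuD at CT03 and 110000, 88300 and 91900 on LeuD at CT15 in WT mice. Itih4 in KO mice read 49700, 53900 and 68300, 103000, 50100 and 59700, 86700, 87200 and 85000 and 80400, 106000 and 112000 in the same order. A single Control library, KO Control CT15 replicate 1, lay within the LeuD range, and Itih4 rose by 0.76 ± 0.12 (adjusted p = 0.000255). Itih3 read 35700, 28500 and 28200 on Control at CT03, 27900, 27200 and 30000 on Control at CT15, 71600, 41100 and 53900 on LeuD at CT03 and 50400, 43100 and 52800 on LeuD at CT15 in WT mice. Itih3 in KO mice read 31100, 33600 and 62300, 74500, 28700 and 36600, 53100, 59200 and 49700 and 48900, 77000 and 77700 in the same order. The 2 Control libraries inside the LeuD range were KO Control CT03 replicate 3 and KO Control CT15 replicate 1. Itih3 rose by 0.66 ± 0.15 (adjusted p = 0.00573).

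Caeruloplasmin (Cp) carries copper and oxidises iron. Cp read 41700, 35900 and 34300 on Control at CT03, 32200, 25300 and 32600 on Control at CT15, 49900, 41400 and 53900 on LeuD at CT03 and 40100, 38200 and 40600 on LeuD at CT15 in WT mice. Cp in KO mice read 40100, 37700 and 46400, 50100, 33200 and 37000, 64100, 69900 and 44300 and 56300, 80100 and 78900 in the same order. Of the 6 KO LeuD livers 5 were the highest of all, while KO LeuD CT03 replicate 3 lay among the others, and Cp rose by 0.53 ± 0.10 (adjusted p = 0.00121). Serpina3n is a protease inhibitor. Serpina3n read 16200, 12300 and 14800 on Control at CT03, 12500, 11800 and 19900 on Control at CT15, 18300, 12500 and 18100 on LeuD at CT03 and 14400, 15000 and 21100 on LeuD at CT15 in WT mice. Serpina3n in KO mice read 16100, 14700 and 27100, 21400, 13800 and 14200, 30000, 23300 and 17700 and 23900, 35700 and 40500 in the same order. The ranges of the diets overlapped, and the rise of 0.43 ± 0.14 (adjusted p = 0.0448) kept its call in 8 of the 24 fits that left out 1 library.

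C-reactive protein (Crp) is a pentraxin like Apcs. Crp read 17100, 16000 and 14800 on Control at CT03, 11200, 11600 and 14400 on Control at CT15, 14100, 14100 and 16200 on LeuD at CT03 and 17700, 11300 and 12000 on LeuD at CT15 in WT mice. Crp in KO mice read 14700, 15500 and 20500, 29500, 17300 and 19100, 7940, 7630 and 15100 and 10200, 13000 and 12000 in the same order. In WT the diets overlapped almost fully, and in KO only KO LeuD CT03 replicate 3 reached the Control range. The average fall was -0.41 ± 0.12 (adjusted p = 0.0244). It was not called without KO LeuD CT03 replicate 1 or without the 5 libraries with acinar reads (adjusted p = 0.0538 at most).

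**Figure D3:**
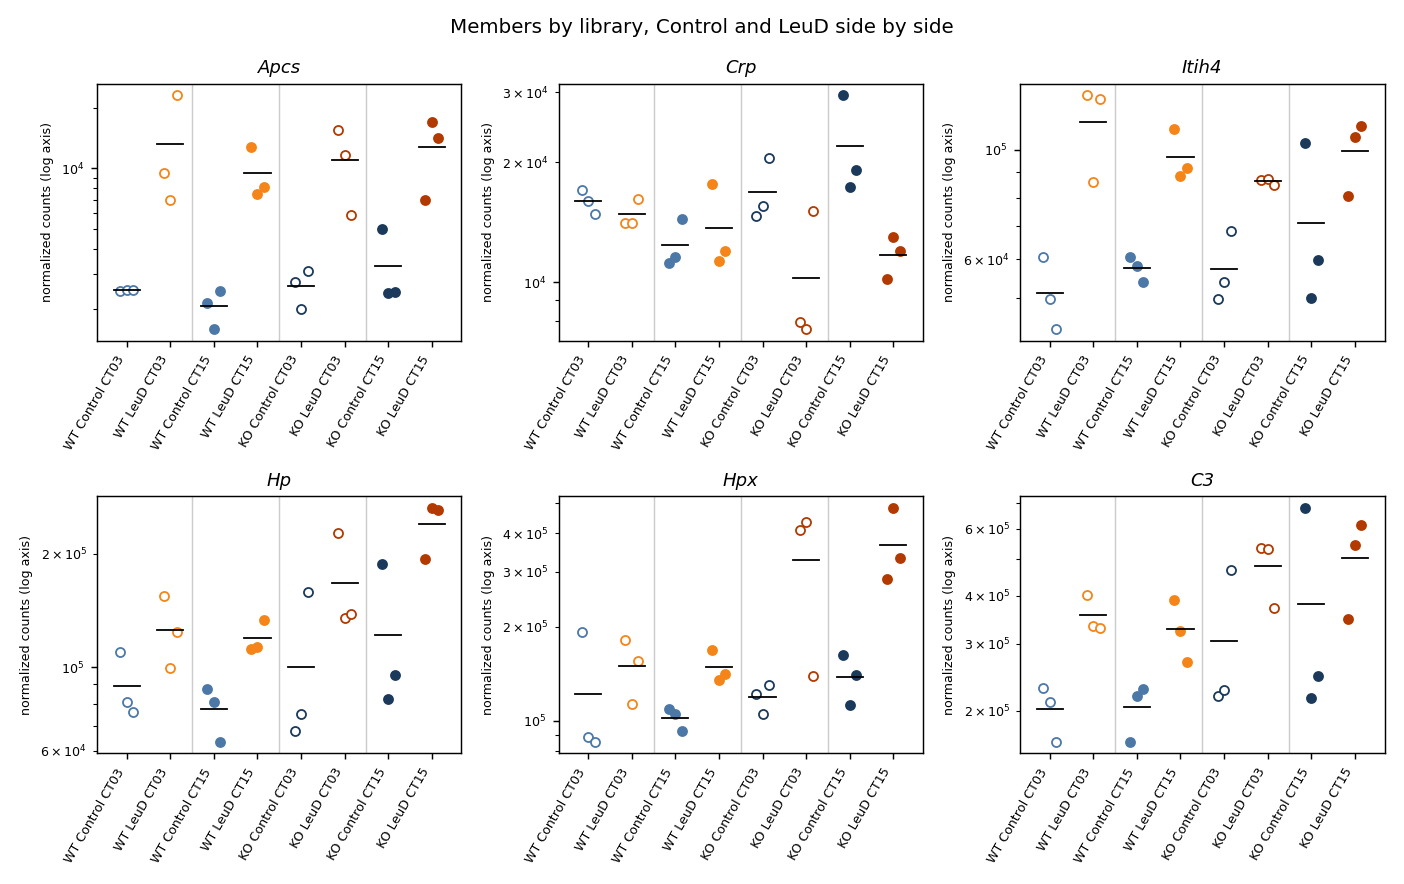
Normalized counts on a log axis are drawn per library for members called for diet, with groups on the horizontal axis and a line at each group mean. Apcs points lie at 5850 to 23000 on LeuD and at 1600 to 5030 on Control, and Hpx is highest in KO LeuD.

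Among the complement genes, C3 is the protein on which all activation routes meet, Cfb forms the alternative pathway convertase and Cfi cuts C3b. C3 read 230000, 211000 and 166000 on Control at CT03, 166000, 219000 and 228000 on Control at CT15, 403000, 334000 and 330000 on LeuD at CT03 and 391000, 323000 and 268000 on LeuD at CT15 in WT mice. C3 in KO mice read 219000, 227000 and 468000, 680000, 216000 and 247000, 534000, 531000 and 371000 and 349000, 543000 and 615000 in the same order. LeuD libraries of WT lay above all WT Control libraries, while KO Control CT15 replicate 1 was the highest of all 24 and KO Control CT03 replicate 3 stood among the LeuD livers. C3 rose by 0.70 ± 0.19 (adjusted p = 0.019). Cfb read 5600, 5310 and 5300 on Control at CT03, 5720, 5810 and 4320 on Control at CT15, 6900, 5540 and 4630 on LeuD at CT03 and 6770, 5700 and 5920 on LeuD at CT15 in WT mice. Cfb in KO mice read 4060, 5630 and 5430, 8120, 5920 and 6040, 7760, 7690 and 6290 and 7130, 9500 and 9490 in the same order. The ranges overlapped, and Cfb rose by 0.30 ± 0.09 (adjusted p = 0.0248). Cfi read 27100, 23100 and 22200 on Control at CT03, 23200, 22700 and 23400 on Control at CT15, 32000, 22300 and 22400 on LeuD at CT03 and 30100, 27200 and 31200 on LeuD at CT15 in WT mice. Cfi in KO mice read 25300, 24100 and 26400, 28400, 24500 and 28900, 32500, 30000 and 26200 and 32800, 41000 and 44100 in the same order. Ranges overlapped at CT03 and were apart at CT15 in both genotypes, and the rise was 0.29 ± 0.07 (adjusted p = 0.0123). Cfi was not called without the libraries with acinar reads (adjusted p = 0.0611), and Cfb was not called with scaling to the library total (adjusted p = 0.0717).

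Genes of the membrane attack complex did not share this direction. C9 differed by -0.50 ± 0.22 (adjusted p = 0.133), C6 by -0.44 ± 0.28 (adjusted p = 0.334), C8a by -0.33 ± 0.26 (adjusted p = 0.441) and C8b by -0.06 ± 0.18 (adjusted p = 0.878). C4b, whose reads cannot be told with certainty from those of its near-identical copy C4a, ranged from 35000 to 55600 on Control and from 35100 to 67600 on LeuD.

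Prothrombin (F2) is the precursor of thrombin. F2 read 68800, 68800 and 68000 on Control at CT03, 63900, 73500 and 74200 on Control at CT15, 93400, 89200 and 91700 on LeuD at CT03 and 91000, 89800 and 85300 on LeuD at CT15 in WT mice. F2 in KO mice read 76400, 78200 and 76100, 80600, 66500 and 75600, 96200, 84700 and 91800 and 98600, 93800 and 121000 in the same order. The 12 LeuD libraries (84700 to 121000) lay above the 12 Control libraries (63900 to 80600), and F2 rose by 0.37 ± 0.07 (adjusted p = 0.00128). F10 and F5, factor X and factor V, form the complex that cuts prothrombin. F10 read 18100, 16000 and 16700 on Control at CT03, 16000, 18200 and 21200 on Control at CT15, 21400, 21200 and 19900 on LeuD at CT03 and 23600, 22800 and 20800 on LeuD at CT15 in WT mice. F10 in KO mice read 20400, 20200 and 18700, 18200, 18100 and 22400, 24600, 20800 and 20200 and 30100, 24600 and 38800 in the same order. LeuD and Control ranges overlapped, with the highest values in KO LeuD at CT15, and F10 rose by 0.35 ± 0.07 (adjusted p = 0.00385). F5 read 18000, 20700 and 17400 on Control at CT03, 17000, 18400 and 20400 on Control at CT15, 24000, 24000 and 31100 on LeuD at CT03 and 33100, 25100 and 23000 on LeuD at CT15 in WT mice. F5 in KO mice read 22800, 22800 and 26300, 28200, 21300 and 22600, 23700, 23500 and 24400 and 23700, 23700 and 28800 in the same order. The LeuD and Control ranges were apart in WT and overlapped in KO, and F5 rose by 0.27 ± 0.08 (adjusted p = 0.0197).

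Serpinc1 encodes antithrombin, the main inhibitor of thrombin, and Plg encodes plasminogen. Serpinc1 read 70400, 73800 and 85100 on Control at CT03, 75800, 86700 and 85300 on Control at CT15, 95800, 92500 and 93600 on LeuD at CT03 and 110000, 96300 and 86700 on LeuD at CT15 in WT mice. Serpinc1 in KO mice read 84200, 87600 and 87600, 91600, 79700 and 103000, 106000, 96100 and 103000 and 143000, 108000 and 151000 in the same order. The highest values were those of KO LeuD CT15 replicates 1 and 3, and Serpinc1 rose by 0.33 ± 0.08 (adjusted p = 0.00863). Plg read 76500, 76200 and 71400 on Control at CT03, 55400, 59100 and 74100 on Control at CT15, 102000, 88400 and 97000 on LeuD at CT03 and 77300, 78300 and 90200 on LeuD at CT15 in WT mice. Plg in KO mice read 89700, 86800 and 88100, 82200, 65000 and 61200, 89200, 88400 and 84300 and 83900, 86900 and 104000 in the same order. Diets were apart in WT at both times and in KO at CT15 and overlapped in KO at CT03, and Plg rose by 0.28 ± 0.08 (adjusted p = 0.0165). Serpinc1 was not called without the libraries with acinar reads (adjusted p = 0.0625).

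Of the members not called, Lbp, the lipopolysaccharide binding protein, differed by 0.60 ± 0.24 (adjusted p = 0.105), F11 by 0.55 ± 0.21 (adjusted p = 0.0905) and Fgb by 0.34 ± 0.12 (adjusted p = 0.0706). Albumin, a negative acute phase protein, did not pass either. Alb read 2540000, 2720000 and 3080000 on Control at CT03, 2300000, 3310000 and 3780000 on Control at CT15, 3100000, 3180000 and 2850000 on LeuD at CT03 and 4360000, 4410000 and 3370000 on LeuD at CT15 in WT mice. Alb in KO mice read 3560000, 3360000 and 3910000, 3690000, 3950000 and 4590000, 4820000, 4460000 and 4860000 and 7120000, 5460000 and 7180000 in the same order. KO LeuD values lay above nearly all others, with KO Control CT15 replicate 3 inside their range, and the average difference was 0.40 ± 0.25 (adjusted p = 0.328 with limma, 0.025 with edgeR on the recovered reads). The median SD of Alb within groups was 0.15 in log2, and the SE of limma also draws on genes with similar levels. Albumin took 11.8% to 15.3% of reads in KO LeuD and 6.14% to 10.9% in the other groups. Transthyretin differed by -0.20 ± 0.13 (adjusted p = 0.333) and transferrin (Trf) by 0.20 ± 0.10 (adjusted p = 0.21).

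Within single conditions of 3 against 3 mice, few members passed. In WT at CT03, 4 of 45 were called, where 2.24% of all genes were (1.31% higher, 0.93% lower): Apcs (2.20 ± 0.36, adjusted p = 0.0262), Itih4 (1.14 ± 0.21, adjusted p = 0.0359) and Il6ra (0.95 ± 0.18, adjusted p = 0.0359) rose, and C6 fell by 1.5 ± 0.26 (adjusted p = 0.0306). Il6ra encodes the chain that binds interleukin 6. Il6ra read 1120, 828 and 787 on Control at CT03, 728, 1170 and 2040 on Control at CT15, 1380, 1990 and 1920 on LeuD at CT03 and 2380, 2370 and 3160 on LeuD at CT15 in WT mice. Il6ra in KO mice read 1300, 949 and 1850, 4140, 943 and 1770, 1650, 669 and 1750 and 1780, 2660 and 2000 in the same order. Values for LeuD exceeded those for Control in WT at both times, and KO livers overlapped. C6 encodes a component of the membrane attack complex. C6 read 10600, 10700 and 9510 on Control at CT03, 9600, 6140 and 3060 on Control at CT15, 5760, 3460 and 2410 on LeuD at CT03 and 2300, 3690 and 5480 on LeuD at CT15 in WT mice. C6 in KO mice read 7800, 8950 and 2820, 1730, 10100 and 8420, 7140, 7480 and 4600 and 7600, 7900 and 4620 in the same order. WT LeuD lay below WT Control at CT03, and the KO livers had no such gap. The 4 calls depended on single mice: 0 members were called without WT Control CT03 replicate 2 or 3, 1 without WT LeuD CT03 replicate 2 or 3, and 5 without WT Control CT03 replicate 1.

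In WT at CT15, Apcs alone was called (2.16 ± 0.23, adjusted p = 0.0246), where 0.186% of all genes were (0.0663% higher, 0.119% lower). It was not called without WT Control CT15 replicate 1 or 2 or without WT LeuD CT15 replicate 2 or 3, and 2 members were called without WT Control CT15 replicate 3. In KO, 0 members were called at CT03, where 0% of all genes were, and 0 at CT15, where 0.0202% were. At an unadjusted p under 0.05, 11 members passed in KO at CT03 and 9 at CT15, beside 14.6% and 16% of all genes. edgeR called 0 in both, and the fit of all 24 libraries, which shares 1 estimate of the spread, called 4 and 11 (4.31% and 8.47% of all genes). Without KO LeuD CT03 replicate 3, limma called 8 members in KO at CT03, and without KO Control CT15 replicate 1 it called 2 at CT15. In the authors' deposited tables, 11 members passed in WT at CT03, 11 in WT at CT15, 4 in KO at CT03 and 7 in KO at CT15, with 7.22%, 3.7%, 3.51% and 4.82% of all genes.

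Within each genotype, over both times, 4 members rose in WT (Apcs, Itih4, F2 and F5), where 2.31% of all genes were called (1.36% higher, 0.95% lower). In KO 16 were called, where 17% of all genes were (8.97% higher, 8.04% lower). Those 13 higher in KO were Saa3, Apcs, Hp, Hpx, Cp, Itih4, Serpina3n, Cfb, Cfi, F2, F10, F11 and Serpinc1, and the 3 lower were Crp, F7 and Proc. These fits within genotypes were added after seeing the data. Without the libraries with acinar reads 12 members were called in KO (8.99% of all genes), 9 of them among these 16. F2 in WT kept its call in 10 of the 24 fits that left out 1 library. The number called in WT was 8 without KO Control CT15 replicate 1 and 2 without WT Control CT15 replicate 1, WT LeuD CT03 replicate 3 or WT LeuD CT15 replicate 1. Hpx differed by 1.34 ± 0.26 in KO (adjusted p = 0.00198) and by 0.45 ± 0.26 in WT (adjusted p = 0.403). Proc, which encodes protein C, differed by -0.37 ± 0.10 in KO (adjusted p = 0.0129) and by 0.15 ± 0.10 in WT (adjusted p = 0.456). The test of the difference between genotypes called 0 members, where 1.49% of all genes were called, with 13 members at an unadjusted p under 0.05 (20.2% of all genes) and 0 called by edgeR. The lowest adjusted p values were those of Proc (-0.52 ± 0.14, adjusted p = 0.0547), F9 (-0.57 ± 0.15, adjusted p = 0.0576) and F7 (-0.64 ± 0.18, adjusted p = 0.0686). Without KO LeuD CT03 replicate 3, 5 members passed that test, without KO Control CT15 replicate 2 it was 2, without KO LeuD CT15 replicate 1 it was 1, and without KO LeuD CT03 replicate 1 the number called in KO was 10.

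Members were called for time of day less often than all genes. Averaged over genotypes and diets, 4 of 45 members (8.89%) were called, where 24.9% of all genes were (11.9% higher, 13.1% lower). Fga, Fgb and Fgg, which encode the alpha, beta and gamma chains of fibrinogen, fell from CT03 to CT15, and F7, which encodes the factor that starts clotting with tissue factor, rose. The median change of the 45 was 0.03, against 0.01 over all genes. At an unadjusted p under 0.05, 13 members and 36.7% of all genes passed.

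Fga read 226000, 219000 and 197000 on Control at CT03, 150000, 107000 and 138000 on Control at CT15, 296000, 191000 and 199000 on LeuD at CT03 and 118000, 122000 and 156000 on LeuD at CT15 in WT mice. Fga in KO mice read 234000, 208000 and 188000, 194000, 129000 and 151000, 199000, 237000 and 270000 and 123000, 127000 and 261000 in the same order. The CT15 values lay below the CT03 values of the same genotype and diet in WT on both diets, and KO Control CT15 replicate 1 and KO LeuD CT15 replicate 3 reached into the CT03 range. Fga fell by 0.61 ± 0.14 (adjusted p = 0.00227). Fgb read 208000, 186000 and 166000 on Control at CT03, 129000, 91800 and 143000 on Control at CT15, 268000, 180000 and 192000 on LeuD at CT03 and 127000, 138000 and 165000 on LeuD at CT15 in WT mice. Fgb in KO mice read 234000, 182000 and 201000, 169000, 123000 and 141000, 220000, 283000 and 252000 and 182000, 192000 and 322000 in the same order. KO LeuD CT15 replicate 3 was the highest of all 24 libraries, and Fgb fell by 0.47 ± 0.12 (adjusted p = 0.00838). Fgg read 187000, 182000 and 155000 on Control at CT03, 133000, 89900 and 131000 on Control at CT15, 253000, 172000 and 174000 on LeuD at CT03 and 119000, 121000 and 144000 on LeuD at CT15 in WT mice. Fgg in KO mice read 186000, 183000 and 164000, 168000, 110000 and 145000, 166000, 207000 and 225000 and 131000, 137000 and 195000 in the same order. Times were apart in WT on both diets and overlapped in KO, and Fgg fell by 0.49 ± 0.11 (adjusted p = 0.0039). All 3 were lower at CT15 in each of the 4 conditions and, like F7, kept their calls in 30 of 30 alternative fits. F7 read 4070, 3850 and 3910 on Control at CT03, 4070, 4590 and 5610 on Control at CT15, 4550, 4010 and 4240 on LeuD at CT03 and 4770, 5640 and 6380 on LeuD at CT15 in WT mice. F7 in KO mice read 4850, 4560 and 4770, 4580, 4700 and 4700, 2220, 2060 and 3900 and 4810, 3650 and 5010 in the same order. In KO on Control the values at both times were between 4560 and 4850, and 2 of the KO LeuD CT03 livers were the lowest of all. F7 rose by 0.35 ± 0.09 (adjusted p = 0.00769).

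**Figure D4:**
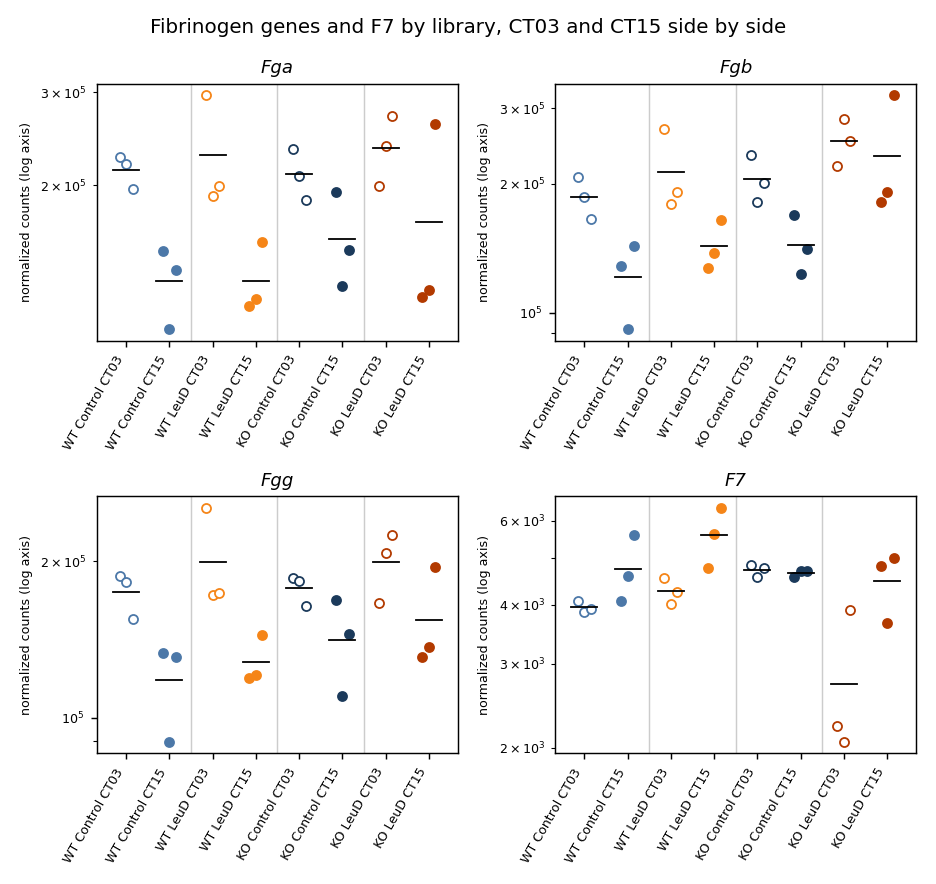
Normalized counts on a log axis are drawn per library for Fga, Fgb, Fgg and F7, with CT03 and CT15 of each genotype and diet side by side and a line at each group mean. Fibrinogen means are lower at CT15 in all 4 conditions, and F7 is lowest in KO LeuD at CT03.

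Within single conditions, time called 2 members in WT on LeuD, where 9.61% of all genes were called (4.32% higher, 5.29% lower). Lbp presents bacterial lipopolysaccharide to its receptor. Lbp read 3600, 2750 and 2550 on Control at CT03, 2140, 2020 and 2010 on Control at CT15, 5460, 4040 and 5380 on LeuD at CT03 and 2830, 2710 and 2840 on LeuD at CT15 in WT mice. Lbp in KO mice read 2890, 2510 and 8560, 9800, 1790 and 1780, 5560, 3980 and 5900 and 3970, 6200 and 7370 in the same order. WT LeuD values at CT15 lay below those at CT03 with a wide gap, and KO Control CT03 replicate 3 and KO Control CT15 replicate 1 were the highest of all 24. Lbp fell by 0.82 ± 0.13 in WT on LeuD (adjusted p = 0.00639). Stat3 transmits the interleukin 6 signal to the nucleus. Stat3 read 4680, 4070 and 3310 on Control at CT03, 5440, 3500 and 4120 on Control at CT15, 6520, 4440 and 5530 on LeuD at CT03 and 3850, 3680 and 3810 on LeuD at CT15 in WT mice. Stat3 in KO mice read 4170, 4760 and 5310, 5530, 2930 and 4210, 5230, 5310 and 6600 and 4520, 5530 and 9160 in the same order. In WT on LeuD the times were apart, and KO LeuD CT15 replicate 3 was the highest library. Stat3 fell there by 0.52 ± 0.14 (adjusted p = 0.0479), which kept its call in 1 of the 6 fits that left out 1 library. Without WT LeuD CT03 replicate 1 or 3, or WT LeuD CT15 replicate 2 or 3, 1 member was called.

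Time called 0 members in WT on Control (1.42% of all genes), 0 in KO on Control (0.0407%) and 0 in KO on LeuD (0.805%). At an unadjusted p under 0.05, 10, 3 and 1 members passed, beside 17.1%, 12.3% and 16.2% of all genes, and edgeR called 0 members in each. A single member was called in WT on Control without WT Control CT15 replicate 3, and 1 in KO on LeuD without KO LeuD CT03 replicate 3. The authors' deposited table for WT on Control had 7 members lower at CT15 (Lbp, Fga, Fgb, Fgg, C8a, C8b and F11), where 6.2% of all genes passed. The authors' deposited tables called 8 in WT on LeuD, 1 in KO on Control and 0 in KO on LeuD, with 13.7%, 2.43% and 5.68% of all genes. Neutrophil markers (5 of 5 tested) and lymphocyte markers (6 of 10) also fell from CT03 to CT15, and their part in these differences was not tested.

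Genotype separated few members. Averaged over diets and times, 2 of 45 were called, both higher in KO, where 2.48% of all genes were called (1.22% higher, 1.26% lower). Hpx was higher by 0.69 ± 0.18 (adjusted p = 0.0485) and Cp by 0.42 ± 0.10 (adjusted p = 0.0248), from the values given above. edgeR on the recovered reads called Hpx, Cp and also Alb, where it called 2.55% of all genes. Alb was higher in KO by 0.52 with edgeR (adjusted p = 0.0174) and by 0.53 with limma, which did not call it. The difference of Alb was positive in all 4 conditions (0.38 to 0.70). Without the libraries with acinar reads 0 were called (0.881% of all genes), and with scaling to the library total 2 other members were called, both lower (8.15% of all genes). Hpx kept its call in 4 and Cp in 19 of the 24 fits that left out 1 library, and the number called ran from 0 (for example without KO Control CT03 replicate 3) to 5 (without KO LeuD CT03 replicate 3). The median difference of the 45 was 0.18, against 0.00 over all genes, and KO LeuD held the highest albumin and lowest mitochondrial shares.

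In single conditions, genotype called 0 members on Control at CT03 (0.0136% of all genes), on Control at CT15 (0.0798%), on LeuD at CT03 (0.0416%) and on LeuD at CT15 (1.89%). At an unadjusted p under 0.05 the numbers were 4, 2, 5 and 17, beside 8.18%, 5.49%, 13.7% and 18.7% of all genes. edgeR called 0, 0, 0 and 2 (Hp and Hpx on LeuD at CT15, with 1.78% of all genes). On LeuD at CT15 the lowest adjusted p of limma was that of Lbp (1.02 ± 0.21, adjusted p = 0.0502), followed by Hpx (1.28 ± 0.27, adjusted p = 0.0549) and Cp (0.84 ± 0.18, adjusted p = 0.0602). Without KO LeuD CT15 replicate 1, 3 members were called there, and without KO LeuD CT03 replicate 3, 6 were called on LeuD at CT03. The authors' deposited tables called 0 members for genotype on Control at CT03 (0.649% of all genes) and at CT15 (0.321%).

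Tests of the difference between effects called 0 members. These were time by diet in WT (0.00693% of all genes called) and in KO (0%), time by genotype on Control (0.0277%) and on LeuD (0.0208%), and diet by genotype at CT03 (0%) and at CT15 (0.104%). At an unadjusted p under 0.05, 2, 2, 1, 1, 9 and 3 members passed, beside 6.62%, 6.48%, 4.99%, 9.4%, 13.1% and 12.2% of all genes, and edgeR called 0 members in each. In simulated data with 2-fold changes, and 1 spread per gene shared by all groups, these tests recovered 12% to 32% of the changed genes. Differences of that size could thus be missed. Without KO LeuD CT03 replicate 3 the 6 tests called 4 members in all.

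Several members varied widely between mice of the same group. Serum amyloid A proteins are carried on high-density lipoprotein, and reads of the near-identical Saa1 and Saa2 cannot be told apart with certainty. Saa1 read 7580, 1200 and 1160 on Control at CT03, 6190, 635 and 980 on Control at CT15, 5530, 581 and 1030 on LeuD at CT03 and 942, 628 and 1390 on LeuD at CT15 in WT mice. Saa1 in KO mice read 918, 900 and 853, 1250, 1610 and 706, 1530, 3220 and 1020 and 1010, 4740 and 563 in the same order. Levels of 3220 to 7580 were found in WT Control CT03 replicate 1, WT Control CT15 replicate 1, WT LeuD CT03 replicate 1, KO LeuD CT03 replicate 2 and KO LeuD CT15 replicate 2, and the other libraries were at or below 1610. Saa2 read 3110, 501 and 742 on Control at CT03, 3090, 420 and 639 on Control at CT15, 1120, 264 and 213 on LeuD at CT03 and 366, 297 and 443 on LeuD at CT15 in WT mice. Saa2 in KO mice read 442, 352 and 269, 356, 595 and 365, 708, 1100 and 442 and 597, 2010 and 293 in the same order. The same 5 libraries were the highest for Saa2. WT Control CT03 replicate 1 also held the highest sum of Kupffer cell and macrophage markers (1060 RPM), and that link was not tested. The average diet difference of Saa1 was -0.01 ± 0.45 (adjusted p = 0.99).

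Saa3 is the form also made by macrophages. Saa3 read 192, 99.1 and 87.9 on Control at CT03, 122, 77.6 and 59.3 on Control at CT15, 182, 89.2 and 47.6 on LeuD at CT03 and 115, 79.9 and 139 on LeuD at CT15 in WT mice. Saa3 in KO mice read 72.2, 45.8 and 102, 130, 94.3 and 98.2, 423, 230 and 147 and 177, 349 and 79.1 in the same order. In KO it was higher on LeuD (79.1 to 423, median 203) than on Control (45.8 to 130, median 96.3), with overlap. Its difference in KO was 1.23 ± 0.37 (adjusted p = 0.0257), and it was not called without KO Control CT03 replicate 2, KO LeuD CT03 replicate 1 or KO LeuD CT15 replicate 2. Lipocalin 2 (Lcn2) binds bacterial siderophores. Lcn2 read 779, 143 and 194 on Control at CT03, 331, 72.7 and 366 on Control at CT15, 1690, 175 and 827 on LeuD at CT03 and 412, 120 and 836 on LeuD at CT15 in WT mice. Lcn2 in KO mice read 205, 133 and 699, 1520, 320 and 144, 1730, 2070 and 310 and 685, 4810 and 1770 in the same order. KO Control at CT15 alone ran from 144 to 1520, and the average diet difference of 1.49 ± 0.53 did not pass (adjusted p = 0.0678).

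Orosomucoid (Orm1), an acid glycoprotein of plasma, went the other way, and its reads may be shared with its close copies such as Orm2. Orm1 read 21800, 15000 and 16500 on Control at CT03, 26100, 15500 and 22400 on Control at CT15, 17500, 4330 and 7250 on LeuD at CT03 and 14000, 4680 and 11600 on LeuD at CT15 in WT mice. Orm1 in KO mice read 16700, 17200 and 10800, 17600, 21100 and 28300, 12000, 19200 and 7230 and 15200, 28000 and 22600 in the same order. WT LeuD held the lowest values, WT LeuD CT03 replicate 2 and WT LeuD CT15 replicate 2, and the KO diets overlapped. The average diet difference was -0.66 ± 0.22 (adjusted p = 0.0562). Orm2 ranged from 223 to 1040 on Control and from 126 to 1770 on LeuD.

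**Figure D5:**
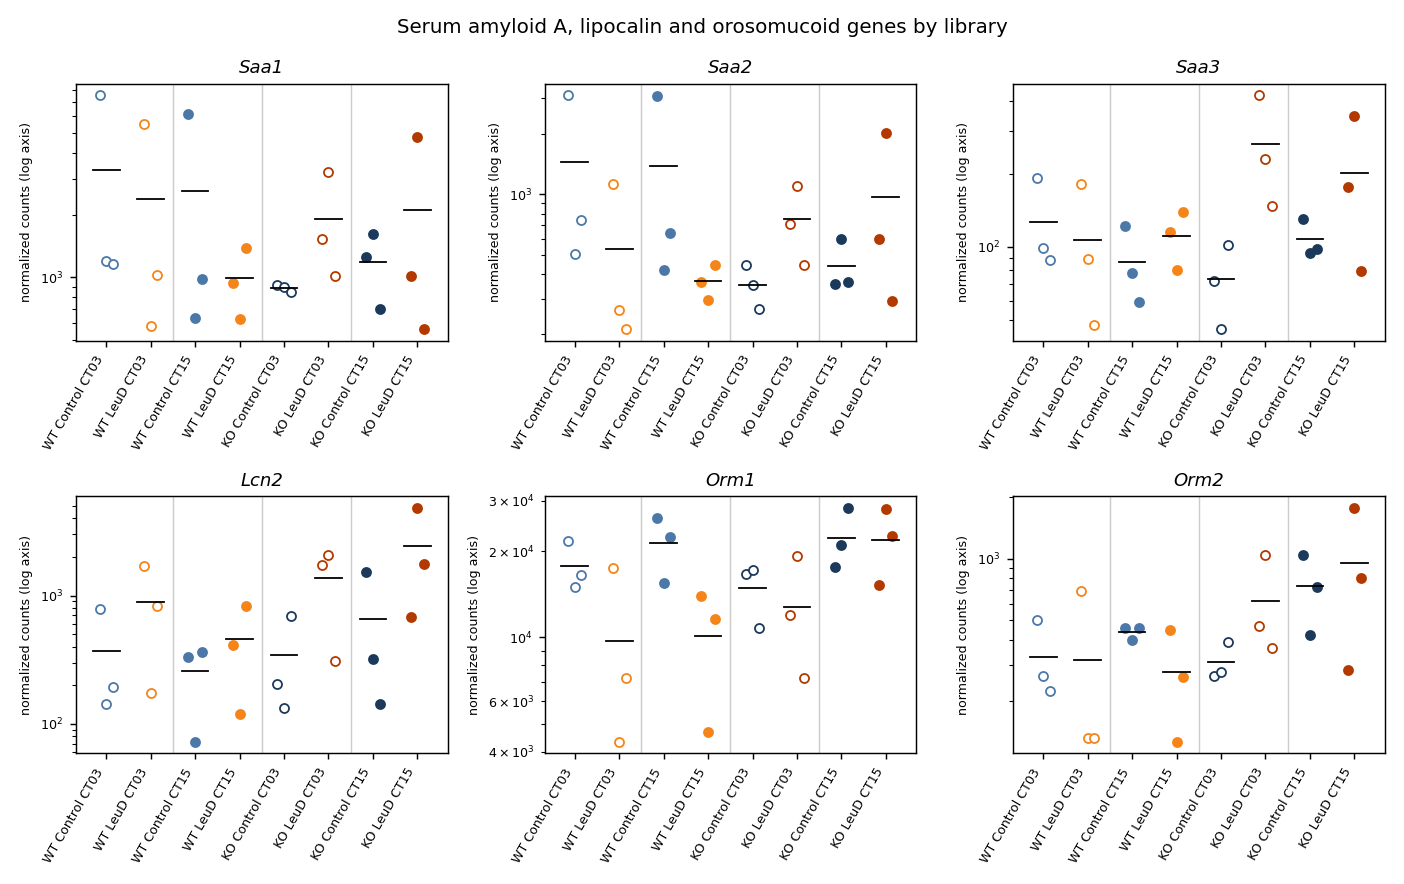
Normalized counts on a log axis are drawn per library for Saa1, Saa2, Saa3, Lcn2, Orm1 and Orm2, with a line at each group mean. Single mice of several groups hold the high Saa1 and Saa2 values, and no group is apart from the rest for these genes.

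A pair of KO Control livers stood apart in a shared manner. KO Control CT15 replicate 1 was the highest of all libraries for Crp, Lbp, C3, F9, Il1r1 and Il6ra and the lowest for C6, C8a, C8b and F11. KO Control CT03 replicate 3 had the next highest Lbp (8560) and a C6 of 2820. These libraries also had the highest sums of hepatocyte markers (39220 and 38490 RPM) and were among the 5 with acinar reads, and whether these are linked was not tested. Without KO Control CT15 replicate 1, the average diet effect called 24 members and the average time effect 7, which it also called without WT LeuD CT03 replicate 1. Shares of all genes in these fits are not given here. With all libraries the shares were 13.9% for diet and 24.9% for time. KO LeuD CT15 replicate 3 was the highest for 12 members (among them Fgb, F2, Serpinc1 and Alb), and WT Control CT15 replicate 2 the lowest for 10 (among them Apcs, Cp and the 3 fibrinogen genes).

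Other genes of the same pathways, from lists chosen with earlier results of these data known, were counted in the same fits, where 7.16% of all genes rose and 6.78% fell on LeuD, and 11.9% rose and 13.1% fell with time. Of 25 other acute phase genes tested, 9 rose on LeuD averaged over conditions and 0 fell, with a median difference of 0.31 against 0.00 over all genes. The list did not separate genes that rise in an acute phase response from those that fall, so this count gives no direction of the response. Ahsg, the fetuin that keeps calcium phosphate in solution, rose by 1.15 ± 0.14 (adjusted p = 3.98e-05), Itih2 by 0.83 ± 0.09 (adjusted p = 1.77e-05) and Itih1 by 0.59 ± 0.06 (adjusted p = 1.3e-05). Of the list, 1 rose and 2 fell with time, both below the shares over all genes. Serpina6, the corticosteroid binding globulin, rose from CT03 to CT15 by 1.19 ± 0.27 (adjusted p = 0.00257). Serpina6 was not called for diet on average; its call for diet in WT at CT03 (1.21 ± 0.09, adjusted p = 0.00156) was lost in the fit of all 24 libraries (adjusted p = 0.408).

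Of 29 other complement genes, 2 rose and 2 fell on LeuD, near the 7.16% and 6.78% of all genes, with a median difference of -0.02. Mbl2, a lectin that starts one activation route, rose by 0.43 ± 0.10 (adjusted p = 0.00709) and was higher in KO by 0.50 ± 0.10 on average (adjusted p = 0.00836). Cd59a, which blocks the membrane attack complex on host cells, fell by 0.33 ± 0.09 (adjusted p = 0.0173) and was lower in KO by 1.22 ± 0.09 on average (difference -1.22, adjusted p = 3.85e-08). Whether the genotype differences of Mbl2 and Cd59a came from loss of GCN2 or from other DNA differences between the mice was not tested. Over both times, the diet differences of Mbl2 (0.68 ± 0.14, adjusted p = 0.00338) and Cd59a (-0.61 ± 0.13, adjusted p = 0.00338) were called in KO. Neither gene was called for diet in WT, and the test of the difference between genotypes called neither. With time 3 rose and 1 fell, beside 11.9% and 13.1% of all genes. C4a, whose reads cannot be told with certainty from those of C4b, rose from CT03 to CT15 by 1.47 ± 0.35 (adjusted p = 0.004). Cfd, the factor D protease, differed between LeuD and Control in WT at CT03 by -3.41 ± 0.40 (adjusted p = 0.00808), from a mean of 79.5 to 6.77 normalized counts. That call was lost in the fit of all 24 libraries (adjusted p = 0.319).

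Of 26 other coagulation and fibrinolysis genes tested, 6 rose on LeuD and 0 fell (7.16% and 6.78% of all genes), with a median of 0.11. They included Serpina10, an inhibitor of factor X (0.63 ± 0.07, adjusted p = 1.36e-05), Habp2, a plasma protease (0.53 ± 0.09, adjusted p = 0.000788), and Mcfd2, which helps export factors V and VIII from the cell (0.45 ± 0.09, adjusted p = 0.00232). Serpinf2, the inhibitor of plasmin, rose on LeuD by 0.29 ± 0.07 (adjusted p = 0.00591) and fell from CT03 to CT15 by 0.65 ± 0.07 (adjusted p = 8.9e-07).

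Of 37 genes of cytokine signalling, 2 rose and 1 fell on LeuD (7.16% and 6.78% of all genes), with a median of 0.05. From CT03 to CT15, 2 rose and 6 fell (11.9% and 13.1% of all genes), with a median of 0.01. Tyk2, a kinase bound to cytokine receptors, fell with time by 0.51 ± 0.07 (adjusted p = 1.38e-05) and Tnfrsf1a, a receptor for tumour necrosis factor, by 0.24 ± 0.05 (adjusted p = 0.00257). Cebpb, a C/EBP transcription factor, rose by 0.78 ± 0.18 (adjusted p = 0.00422). Socs3, a member with this role, ranged from 146 to 519 on Control and from 180 to 490 on LeuD and was called in 0 of the comparisons.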

How the data were processed

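RNA of 24 livers (8 groups of 3 mice) was sequenced after oligo(dT) selection, per the labels' protocols. The authors deposited 10 tables of pairwise comparisons, each with signal (a count divided by a size factor per library), log2 fold changes, p-values and adjusted p-values, per the file headers. Per the submitters' processing notes, Trimmomatic 0.36, STAR 2.5.2b, featureCounts, Subread 1.5.2, DESeq2, DESeq and build GRCm39 were used. Their settings and roles, and the annotation, are not stated in the labels or headers. Whole reads were recovered from the deposited signal in 58 columns (100% whole within a tolerance of 0.01). Libraries held 34137121 to 44884200 such reads.

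Values were tested as log2(normalized count + 1) with limma 3.58.1 (trend) in R 4.3.3, with adjustment over all genes. Each table was fitted alone, while genotype on LeuD, averages and differences of effects used 1 median-of-ratios scale over all libraries. edgeR 4.0.16 on recovered reads was an alternative. The count test was thus not the main one, and it called 18 of 45 members for the average diet effect, where it called 14.7% of all genes. On simulated data, limma recovered 42% to 57% of 2-fold changes in pairwise comparisons of 14420 genes. The changed genes had a mean of at least 50, and each gene had 1 spread shared by all groups. Mates were less alike in KO Control at CT15 (chi-square per degree of freedom 90.5 to 405) than in WT Control at CT03 (34.2 to 89.9). Recovery may thus be lower in groups with a wider spread. Other alternatives were a pseudocount of 8, a mean of at least 50, 1 fit of all libraries, scaling to library totals, a replicate block, no libraries with acinar reads, and leaving out each library. All 45 members may be named, per-library values are given for members called in 1 of the 12 comparisons or 3 averages and for Saa1, Saa2, Saa3, Orm1, Lcn2, Hp, Fgb, C3, Alb and Stat3, and up to 4 called genes of each other list are named by lowest p. Members and lists were chosen with earlier results of these data known. Replicate numbers did not pair the mice. Strand was not used as far as stated, so antisense reads cannot be told apart. Results of some genes of the other lists are not reported here.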

Additional observations from a re-analysis of the deposited data

Results flagged for a closer look

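The diet effect over both times differed between genotypes for Il1rap and Rela, genes of the other lists, by the test of the difference itself (KO minus WT, limma with Benjamini-Hochberg adjustment over all genes, a fit added after seeing the data). Il1rap, the co-receptor of interleukin 1, had a difference of -0.77 ± 0.19 (adjusted p = 0.049), with a diet change of 0.41 ± 0.14 in WT (adjusted p = 0.125) and -0.36 ± 0.14 in KO (adjusted p = 0.0724). Its normalized counts were 5910 to 6770 on Control and 7500 to 8980 on LeuD in WT, and 4540 to 7890 and 3740 to 6490 in KO. Rela, a subunit of NF-kappaB, had a difference of 0.45 ± 0.11 (adjusted p = 0.0469), with -0.07 ± 0.08 in WT (adjusted p = 0.701) and 0.38 ± 0.08 in KO (adjusted p = 0.0036). Its normalized counts were 1470 to 2190 on Control and 1500 to 2130 on LeuD in WT, and 1580 to 2010 and 2010 to 2610 in KO. Each call held in 3 of the 24 fits that left out 1 library, and neither held without the libraries with acinar reads or with scaling to library totals. The call of Il1rap was also lost with the replicate block.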

How the results depend on the processing

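Numbers of members called are given first as reported. Time in WT on LeuD gave 2, and 1 with edgeR, 0 in 1 fit of all 24 libraries and 1 with the replicate block. Time in KO on LeuD gave 0, and 2 in the fit of all libraries. Diet in that fit gave 2 in WT at CT03 (4 as reported), 0 in WT at CT15 (1), 4 in KO at CT03 (0) and 11 in KO at CT15 (0). Genotype on LeuD at CT15 gave 0, and 1 with a pseudocount of 8, 1 with a mean of at least 50, 2 with edgeR, 1 in the fit of all libraries and 1 (lower) with scaling to library totals. The average genotype effect gave 2, and 0 without libraries with acinar reads. Scaling to library totals gave 2 lower in place of 2 higher, with 0 shared, and moved the median of all genes by genotype to -0.10. The diet difference between genotypes gave 0, and 1 (lower) with that scaling. The average diet effect gave 16 (13.9% of all genes), and 18 with edgeR (14.7%), 14 with scaling to totals (14.2%) and 18 without acinar libraries (13.3%), 13 of them shared. Leaving out 1 library gave these ranges: time 0 to 1 in WT Control, 1 to 2 in WT LeuD, 0 to 0 in KO Control and 0 to 1 in KO LeuD; diet 0 to 5 in WT CT03, 0 to 2 in WT CT15, 0 to 8 in KO CT03 and 0 to 2 in KO CT15. For genotype they were 0 to 0 on Control at both times, 0 to 6 on LeuD at CT03 and 0 to 3 on LeuD at CT15. For averages they were 4 to 7 (time), 14 to 24 (diet), 0 to 5 (genotype), 2 to 8 (diet in WT) and 10 to 22 (diet in KO), with 0 to 5 for the diet difference between genotypes and 0 to 4 for the 6 tests of differences. Where a fit had fewer libraries, the smaller number of samples is part of the change, and other causes were not tested. Of 86 single-gene calls, 86 remained with a pseudocount of 8, 84 with edgeR, 76 with the replicate block and 76 with scaling to totals. In 1 fit of all 24 libraries 7 of 21 remained. Without acinar libraries 52 of 76 remained, and 0 reversed in any of these settings. Replicate numbers did not mark shared mice, and with the block the average diet effect again gave 16.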
